A study of Mus musculus with 2 samples.

Results

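Tbx2, Tbx3, Tbx4 and Tbx5 are 4 of the T-box genes of the mouse, and they lie in the genome as 2 linked pairs, Tbx2 with Tbx4 on chromosome 11 and Tbx3 with Tbx5 on chromosome 5. They were chosen by name, as 4 of 21938 protein-coding gene models, and not by a cutoff on a value, but with earlier results of these data known. Open chromatin around them was read from DNase-seq of whole lung of mice of strain B6NCrl at postnatal day 0, a single group of 2 biological replicates with no genetic change or treatment named. The replicates are separate biosamples listed under the same donor entry, sex was not collected, and the labels do not say whether each came from 1 animal or a pool. No test between groups was therefore possible, and any spread between the replicates may be technical. DNase I cuts DNA most readily where it is not wrapped on nucleosomes, so dense cutting marks promoters, enhancers and insulators.

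T-box proteins are transcription factors that share a DNA-binding domain, the T-box, and recognise elements around the letters GGTGTG. Each pair is thought to descend from a single ancestral gene pair by duplication, so that Tbx2 is most like Tbx3 and Tbx4 is most like Tbx5 in sequence. In the developing mouse lung all of them are known from the mesenchyme, the connective tissue around the airways. There Tbx4 and Tbx5 are needed for bud outgrowth and branching through Fgf10, and Tbx2 and Tbx3, mainly repressors, keep cells dividing by holding down cell cycle inhibitors and Wnt antagonists.

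Peaks are 150 bp intervals with a score that the authors gave each one, from 2 to 150 in replicate 1 (median 50) and from 1 to 148 in replicate 2 (median 43). No source used here says what the score measures or how deeply each library was sequenced, so scores were read within a list, as values and percentiles. Replicate 1 held 276480 peaks and replicate 2 held 188498. Overlapping peaks of the replicates were merged to 290376 sites, of which 161051 held peaks of both and are called shared. The tissue label was checked by markers. All 6 lung epithelial, all 5 lung mesenchymal and all 3 endothelial marker genes had a shared promoter peak, beside 68.4% of all protein-coding genes. So did 2 of 9 genes of liver, heart, hindlimb and muscle (Alb, with scores of 36 and 40, and Pitx1, with 58 and 35). Of those 9 genes, Myl7 had a promoter peak of replicate 1 alone (43) and Myh6 of replicate 2 alone (21). Afp and Ckm had no shared promoter peak but overlapping promoter hotspots, wider regions of cutting, in both replicates. All the lung and endothelial markers had such hotspots too. In whole tissue, fewer cells of a type and less accessible chromatin per cell cannot be told apart.

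Promoter sequences of the members are shown first, since the letters can be set beside the scores given below. Coordinates are those of mm10 (GRCm38), the strand is plus, which is the strand of all 4 genes, and bases within exons of protein-coding genes were left out. At Tbx4, shared peaks at 2 of its 3 transcription start sites (TSSs) held the E-box CAGCTG, the letters bound by many basic helix-loop-helix factors. Of all promoter shared sites 10.7% held these letters within the 150 bp around the centre. A shared site 564 bp upstream of the first Tbx3 TSS, outside the 500 bp taken for promoters, held them too and is not printed. These letters are in capitals in the following lines, all from Tbx4.
Tbx4 upstream of the first TSS, chr11:85885936-85886145: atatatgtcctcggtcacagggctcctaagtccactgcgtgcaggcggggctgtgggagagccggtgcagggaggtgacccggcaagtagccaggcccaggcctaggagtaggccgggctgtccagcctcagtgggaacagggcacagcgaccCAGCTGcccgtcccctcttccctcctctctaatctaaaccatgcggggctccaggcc
Tbx4 first TSS, chr11:85886256-85886421: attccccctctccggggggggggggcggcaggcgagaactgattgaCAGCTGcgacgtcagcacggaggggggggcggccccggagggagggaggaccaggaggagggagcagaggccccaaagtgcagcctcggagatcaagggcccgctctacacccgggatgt
Tbx4 TSS in intron 3, chr11:85896396-85896585: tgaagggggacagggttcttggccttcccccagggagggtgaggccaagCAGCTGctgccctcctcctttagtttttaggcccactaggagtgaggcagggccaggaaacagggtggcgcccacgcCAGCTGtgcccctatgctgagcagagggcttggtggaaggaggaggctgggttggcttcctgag

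The strongest promoter sites of Tbx3 and Tbx5 are shown up to the first transcribed base, with CpG dinucleotides in capitals, because CpG content was among the features in which the 4 promoters differed. At Tbx3 only 33 bases of the site precede exon 1, and at Tbx2 the strongest site lies wholly inside exon 1, so none of its letters are given.
Tbx3 first TSS, chr5:119670636-119670668: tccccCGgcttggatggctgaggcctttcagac
Tbx5 first TSS, chr5:119832476-119832667: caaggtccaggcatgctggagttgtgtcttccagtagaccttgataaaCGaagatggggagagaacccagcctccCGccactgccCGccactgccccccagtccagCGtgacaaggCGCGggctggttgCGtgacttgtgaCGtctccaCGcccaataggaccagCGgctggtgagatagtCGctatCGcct

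All 4 members had a promoter peak in both replicates, that is, a shared peak within 500 bp of a TSS. So did 68.4% of all protein-coding genes, so the count by itself does not set the members apart. The strongest promoter peak of a gene is the shared one with the highest mean percentile over both lists, and its scores are those given for each gene. Within the members, Tbx3 and Tbx2 carried stronger promoter peaks than Tbx4 and Tbx5 in both replicates. Tbx3 and Tbx2 had their strongest promoter peak in the top 10% of both peak lists, as did 45.6% of all protein-coding genes, and Tbx4 and Tbx5 did not. The score of the peak so chosen had a median of 104.5 in replicate 1 and 83.5 in replicate 2 over the members (with 85 and 71 for Tbx4), against 121 and 101 over the 15000 protein-coding genes with a shared promoter peak.

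Tbx3, a repressor that in mouse lung mesenchyme restrains Cdkn1a, had the highest score of the members, 137 in replicate 1 and 116 in replicate 2, at the 99.0 and 97.8 percentiles of the lists. The gene model lies at chr5:119670669-119684724 and has 5 TSSs. Its strongest site spans the first TSS and the start of exon 1, and it lay within 500 bp of the first 3 TSSs, which are 349 bp apart at most. A neighbouring site in exon 1, inside the 5′ untranslated region, scored 100 and 73, and this site lies 131 bp from the start of the antisense transcript Tbx3os1. The TSS 4776 bp downstream had a weak shared peak (43 and 37), and the last TSS, 9580 bp downstream, had none.

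Tbx2, the other repressor of the set, scored 122 in replicate 1 and 96 in replicate 2 at its single TSS, the 96.5 and 93.8 percentiles. The gene model, chr11:85832551-85841948, spans 9398 bp. The peak begins 45 bp inside exon 1 and its centre is in the 5′ untranslated region. The noncoding gene 2610027K06Rik starts 328 bp away on the minus strand and shares this peak, so the data cannot tell the promoters apart.

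Tbx4, required for lung bud branching, scored 85 and 71 at its first TSS, the 82.6 and 82.0 percentiles, at chr11:85886422-85916097. All 3 of its annotated TSSs had a shared peak. A second peak, 277 bp upstream of the first TSS, scored 86 in replicate 1 and 42 in replicate 2. The TSS 3641 bp downstream had a peak of 75 and 53, and the one 10343 bp downstream a peak of 96 and 59, both within introns of the longest coding transcript (introns 1 and 3). In replicate 1 the highest score thus belonged to the TSS in intron 3 and in replicate 2 to the first TSS, so these peaks have no stable order.

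Tbx5, which acts upstream of Fgf10 and Wnt2 and is best known for its role in heart and forelimb, had the weakest promoter in replicate 2. It scored 87 in replicate 1 and 46 in replicate 2, at the 83.8 and 55.4 percentiles. The gene model lies at chr5:119832668-119885219. Its log2 ratio of replicate 1 to replicate 2 was 0.92, beside a median of 0.44 over all shared sites, of which the central 95% ran from -0.08 to 1.07. Tbx3 lay above Tbx2, and Tbx2 above Tbx4 and Tbx5, in both replicates. In replicate 1 the place of Tbx5 (87) depends on which Tbx4 peak is taken, the first TSS (85) or the TSS in intron 3 (96), and in replicate 2 both of these Tbx4 peaks (71 and 59) lay above Tbx5 (46). The other TSSs of Tbx5, 1995 and 3487 bp downstream, had a peak in replicate 1 alone and in replicate 2 alone.

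The sites nearest to the 500 bp limit bear on Tbx5 most. A shared peak 543 bp upstream of its first TSS scored 93 and 57, above its promoter peak in both replicates, and a site 521 bp past its last TSS, in intron 1 of the longest coding transcript, scored 82 and 44. The upstream peak lies 56 bp from the start of Gm43050, a long noncoding RNA on the minus strand. At Tbx3 a site 564 bp upstream scored 101 and 58, and at Tbx2 sites 625 bp downstream and 726 bp upstream scored 70 and 45, and 81 and 49. Just inside the limit, the Tbx3 peak in exon 1, 478 bp from a Tbx3 TSS, scored 100 and 73.

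**Figure D1:**
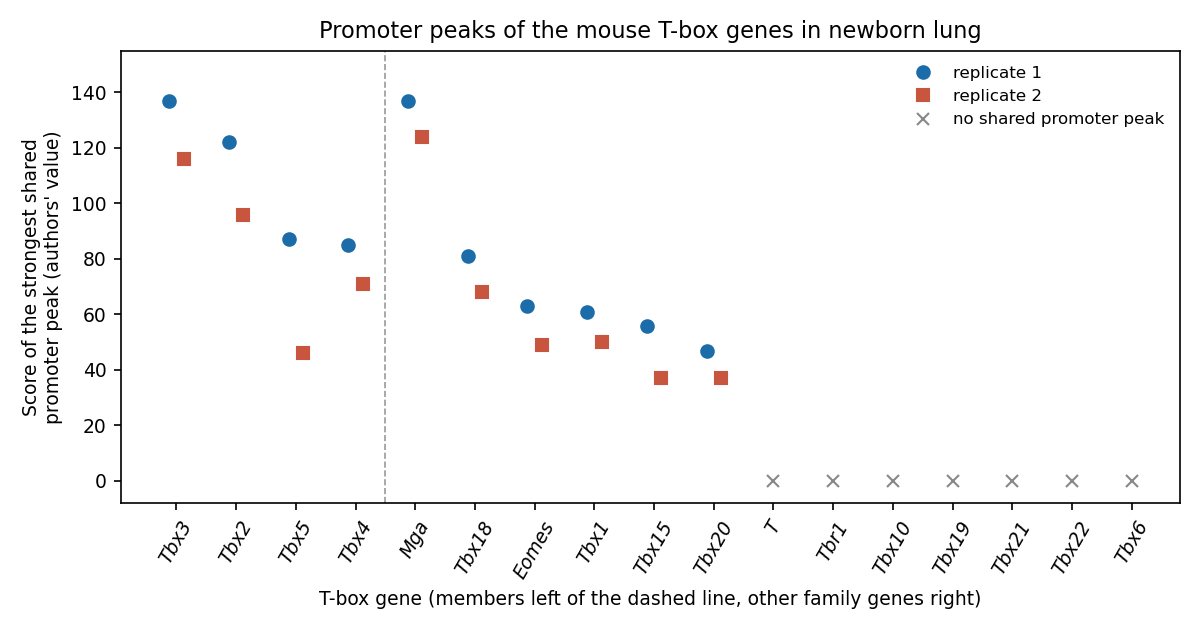
Score of the strongest shared promoter peak (y axis, the authors' value per peak) for each T-box gene (x axis), with circles for replicate 1 and squares for replicate 2, and crosses at 0 for genes with no shared promoter peak. Of the members, Tbx3 (137 and 116) and Tbx2 (122 and 96) sit above Tbx5 (87 and 46) and Tbx4 (85 and 71, the peak at its first TSS), and Mga (137 and 124) is the other family gene in that range.

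Hotspots, the wider regions of cutting that carry a −log10 q-value with a ceiling of 100, divided the members the same way in replicate 2 alone. The widest promoter hotspot of Tbx3, over its first TSS, was at the ceiling in both replicates. It spanned 2630 bp in replicate 1 and 1648 bp in replicate 2. Those near the Tbx3 TSS 4776 bp downstream were weaker, at most 5.046 in replicate 1 and 5.699 in replicate 2. The hotspot over the Tbx2 TSS was at the ceiling in both replicates and spanned 1057 and 975 bp. A further Tbx2 promoter hotspot of replicate 2 had 3.595 over 492 bp. At Tbx4 in replicate 1, the hotspot at the first TSS (644 bp) and the one at the TSS in intron 3 (451 bp) were at the ceiling, whereas in replicate 2 the highest −log10 q-value was 3.44, over 215 bp at the first TSS. At Tbx5 no promoter hotspot was at the ceiling. The highest values there, 4.28 over 405 bp in replicate 1 and 5.40 over 472 bp in replicate 2, belonged to hotspots that reach within 500 bp of the first TSS and hold the peak 543 bp upstream. The hotspots over the TSS itself had 2.61 over 201 bp and 2.93 over 253 bp. Hotspots wider than the Tbx3 promoter hotspot made up 0.232% of all hotspots in replicate 1 and 0.935% in replicate 2.

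The base composition of the promoters followed a like order. Within 500 bp of the 5′ end, Tbx2 had 94 CpG dinucleotides, Tbx3 82, Tbx4 49 and Tbx5 25, which were the 90.7, 84.7, 56.6 and 39.6 percentiles of protein-coding genes. GC content was 70.5% at Tbx2, 63.2% at Tbx3, 62.3% at Tbx4 and 48.5% at Tbx5. The gene with the most CpG dinucleotides, Tbx2, was not the one with the strongest peak, and the part of base composition in the scores was not tested.

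Of the other 13 T-box genes of the mouse, 6 had a shared promoter peak (46.2%), beside all 4 members and 68.4% of all protein-coding genes. They were Mga (137 and 124), Tbx18 (81 and 68), Eomes (63 and 49), Tbx1 (61 and 50), Tbx15 (56 and 37) and Tbx20 (47 and 37). Mga, which unlike the rest also carries a basic helix-loop-helix domain and is broadly used, was the only one of these with its peak in the top 10% of both lists. That is 7.69% of the 13, beside 45.6% of all protein-coding genes. The median over the 6 open genes was 62 and 49.5. Tbx6, Tbx10, Tbx19, Tbx21, Tbx22, Tbr1 and T, which include the factors of early mesoderm (T, Tbx6), T helper cells (Tbx21) and cortical neurons (Tbr1), had no shared promoter peak. Tbx6 (43), Tbx19 (30) and Tbx22 (30) had a promoter peak of replicate 1 alone.

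The regions around the 2 pairs were unequal. Within 100 kb of Tbx2 there were 52 shared sites, 24.83 per 100 kb, the 97.4 percentile of protein-coding genes. Around Tbx4 there were 50 (21.77 per 100 kb, the 94.3 percentile), around Tbx3 30 (14.02 per 100 kb, the 70.4 percentile) and around Tbx5 22 (8.711 per 100 kb, the 41.2 percentile). The median gene had 10.35 per 100 kb, with a range between the quartiles of 5.395 to 14.99. The windows of a pair overlap, with 41 sites in both the Tbx2 and the Tbx4 window and 9 in both the Tbx3 and the Tbx5 window, so these counts are not independent. Among the other T-box genes the density ran from 0.905 per 100 kb at Tbx22 to 22.73 at Tbx10, and genes without a promoter peak could lie in dense regions.

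Taken as 1 window of 283.5 kb, chr11:85732551-86016097, the Tbx2/Tbx4 pair held 108 sites, of which 61 were shared, 35 were in replicate 1 alone and 12 in replicate 2 alone. The Tbx3/Tbx5 window of 414.6 kb, chr5:119570669-119985219, held 100 sites, of which 43 were shared, 48 were in replicate 1 alone and 9 in replicate 2 alone. Distal shared sites, more than 1000 bp from any TSS, numbered 47 around Tbx2/Tbx4, with a median score of 73 in replicate 1 peaks and 53 in replicate 2 peaks, and 29 around Tbx3/Tbx5, with medians of 65 and 38. Over all 119510 distal shared sites the medians were 63 and 43. Of the distal sites, 6 of 47 around Tbx2/Tbx4 (12.8%) and 1 of 29 around Tbx3/Tbx5 (3.45%) were in the top 10% of both lists, beside 4.64% of all distal shared sites.

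Overlap between the replicates was counted in each window. Around Tbx3/Tbx5, 44 of 96 replicate 1 peaks overlapped a replicate 2 peak, 45.8% (exact binomial 95% interval 35.6 to 56.3). Around Tbx2/Tbx4 it was 63 of 101, 62.4% (52.2 to 71.8), and genome-wide 59.5%. In the other direction, 45 of 54 replicate 2 peaks around Tbx3/Tbx5, 83.3% (70.7 to 92.1), and 63 of 76 around Tbx2/Tbx4, 82.9% (72.5 to 90.6), overlapped a replicate 1 peak, against 87.6% genome-wide. The intervals cover counting error only and take peaks as independent, which neighbouring peaks of a region may not be. Those of the 2 pairs overlap, which does not show that the pairs are equal, and their difference was not tested. The genome-wide 59.5% lies above the interval of Tbx3/Tbx5, and inside that of Tbx2/Tbx4. In the other direction 87.6% lies inside the intervals of both pairs. Unshared peaks were the weaker ones, with replicate 1 medians of 46.5 against 75 for shared peaks at Tbx2/Tbx4 and 41 against 66 at Tbx3/Tbx5.

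The sites that carry the strongest distal signal of each pair are shown next, 1 line each, with capitals for any of the motif letters named further on. The first 3 lines are the strongest distal sites of both the Tbx2 and the Tbx4 window, and the last 3 the strongest of the Tbx3 window.
10825 bp after the Tbx2 TSS, chr11:85843376-85843545: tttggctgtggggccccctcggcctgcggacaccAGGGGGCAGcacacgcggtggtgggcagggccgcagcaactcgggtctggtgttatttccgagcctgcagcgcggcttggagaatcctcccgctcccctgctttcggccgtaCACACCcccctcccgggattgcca
11665 bp after the Tbx2 TSS, chr11:85844216-85844405: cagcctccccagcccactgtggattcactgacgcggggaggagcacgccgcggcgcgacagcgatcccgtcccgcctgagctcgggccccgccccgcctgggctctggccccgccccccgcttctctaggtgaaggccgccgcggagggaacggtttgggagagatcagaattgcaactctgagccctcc
46006 bp before the Tbx2 TSS, chr11:85786396-85786545: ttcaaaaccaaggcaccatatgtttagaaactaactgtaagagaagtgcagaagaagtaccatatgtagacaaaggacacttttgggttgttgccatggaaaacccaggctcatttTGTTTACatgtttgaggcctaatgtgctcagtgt
55963 bp before the Tbx5 TSS, chr5:119776556-119776705: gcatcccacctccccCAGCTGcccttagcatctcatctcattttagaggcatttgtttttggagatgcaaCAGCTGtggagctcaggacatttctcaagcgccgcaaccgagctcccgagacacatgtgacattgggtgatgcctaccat
32707 bp after the last annotated Tbx3 TSS, chr5:119712956-119713145: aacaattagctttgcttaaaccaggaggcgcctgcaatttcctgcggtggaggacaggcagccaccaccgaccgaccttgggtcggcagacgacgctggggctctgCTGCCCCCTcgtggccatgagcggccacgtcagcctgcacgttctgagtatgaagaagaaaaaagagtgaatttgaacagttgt
63567 bp after the last annotated Tbx3 TSS, chr5:119743816-119743985: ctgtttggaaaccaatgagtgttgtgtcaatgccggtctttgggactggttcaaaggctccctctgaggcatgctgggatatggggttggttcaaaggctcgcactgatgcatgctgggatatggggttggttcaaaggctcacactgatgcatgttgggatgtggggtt

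In the Tbx2/Tbx4 window the sites crowded onto Tbx2 and the stretch just after it. The body of Tbx2 held 10 shared sites, 106.4 per 100 kb, and the body of Tbx4 held 9, 30.33 per 100 kb. The densest 10 kb, chr11:85837476-85846845, held 15 shared sites, with scores from 42 to 124 in replicate 1 and from 29 to 101 in replicate 2. The median protein-coding gene had at most 5 shared sites in any 10 kb of its window, and 0.214% of genes had a stretch with at least 15. Within the body of Tbx2, 5 of the sites lay in introns 5 and 6 and were of moderate score, 46 to 74 in replicate 1 and 29 to 44 in replicate 2.

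Higher scores were found after the gene. Within 10 kb of its 3′ end there were 10 shared sites, from 148 to 9597 bp past the last base, where replicate 1 scores ran from 53 to 124 (median 107.5) and replicate 2 scores from 29 to 101 (median 83.5). The strongest was the site 10825 bp after the TSS (119 and 101), followed by that 11665 bp after it (124 and 90). Sites at 12185, 13445 and 14145 bp after the TSS scored 105 and 86, 110 and 78, and 124 and 83. All of these lie between the genes, nearer to Tbx2 than to Tbx4, and scored above the promoter peaks of Tbx4 and Tbx5 in both replicates. In replicate 1, 4 of them fell into a single hotspot of 3671 bp at the ceiling value, and 0.0452% of all hotspots in that replicate were wider. In replicate 2 the same stretch was 2 hotspots of 1389 and 1788 bp, also at the ceiling. Gm11444, a small gene model on the minus strand in this stretch, had no shared promoter peak and a weak peak of replicate 1 alone (36) 328 bp from its start.

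After this cluster and a weak site (35 and 29) followed the longest stretch of the window without a shared site, 32930 bp that end at the Tbx4 promoter. The gap held 1 site of a single replicate. Upstream of Tbx2, 17 shared sites with median scores of 99 and 68 lay mostly inside Bcas3, the neighbouring gene, whose own promoter scored 141 and 129. The strongest of them by mean percentile, 46006 bp before Tbx2, scored 114 and 93. After Tbx4 there were 12 shared sites at 12 per 100 kb with medians of 61 and 41.5, after a gap of 22430 bp that began in the body of Tbx4.

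**Figure D2:**
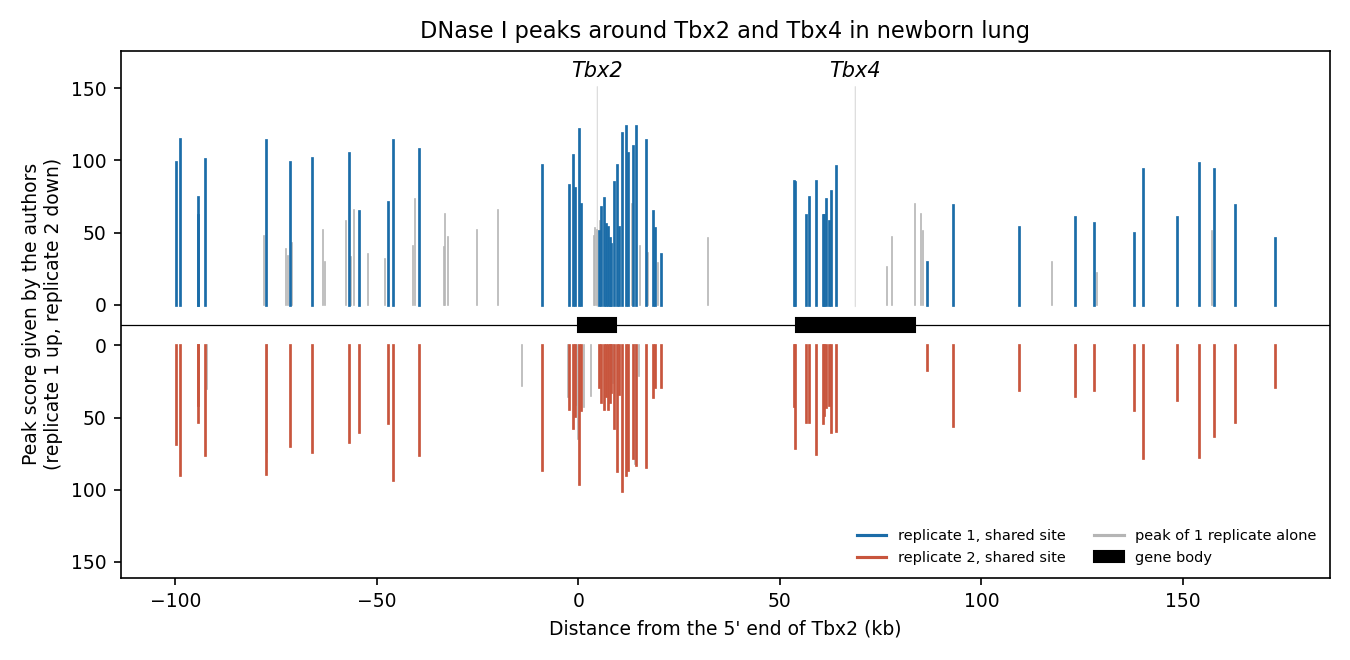
Peaks in the Tbx2/Tbx4 window by distance from the 5′ end of Tbx2 in kb (x axis), with bar height for the authors' peak score (y axis), replicate 1 upward and replicate 2 downward. Coloured bars are shared sites and grey bars peaks of 1 replicate alone. The cluster after Tbx2 reaches 124 in replicate 1 and 101 in replicate 2 and is followed by a gap of 32930 bp before Tbx4.

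In the Tbx3/Tbx5 window, by contrast, the sites lay at the 5′ end of Tbx3 and in the wide stretch between the genes. The body of Tbx3 held 10 shared sites, 71.14 per 100 kb, and all of them lay in its first 3 introns or exon 1. The densest 10 kb, chr5:119669916-119675905, held 11 shared sites, a count that some stretch reached in 2.6% of genes. The 3 sites at the 5′ end scored 100 or more in replicate 1, and the other 8 were weak, with scores of 38 to 54 in replicate 1 and 23 to 47 in replicate 2.

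The 147943 bp between the genes held 20 shared sites, 13.52 per 100 kb, with median scores of 81.5 and 54.5. The strongest, 55963 bp before Tbx5, scored 120 in replicate 1 and 85 in replicate 2, and 4 further sites followed within 5 kb, with scores of 56 and 24, 95 and 64, 76 and 47, and 81 and 47. Sites 32707 and 63567 bp after a Tbx3 TSS scored 94 and 68, and 99 and 64. A site 21103 bp before Tbx5 scored 104 and 81 and was among the strongest 3 of the Tbx5 window. All distal shared sites of this window scored below the strongest Tbx3 promoter peak.

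The body of Tbx5 held 4 shared sites over 52552 bp, 7.612 per 100 kb, in introns 1, 7 and 8. The strongest distal one of these, in intron 8, scored 84 and 54. After Tbx5 there were 2 shared sites in 100 kb, at 2 per 100 kb, with scores of 32 and 19, and 60 and 32, and the gaps around them were 50610 and 44890 bp long. Before Tbx3 there were 7 sites with medians of 57 and 37 and a gap of 42950 bp. The log2 ratio of replicate 1 to replicate 2 had a median of 0.60 over the shared sites of this window and 0.50 over those of Tbx2/Tbx4, beside 0.44 genome-wide. The most unequal site, 31983 bp before Tbx5, scored 85 and 34, a log2 ratio of 1.32. It was picked as the extreme of 43 shared sites. Its place outside the central 95% of all shared sites therefore does not show it to be unusual.

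**Figure D3:**
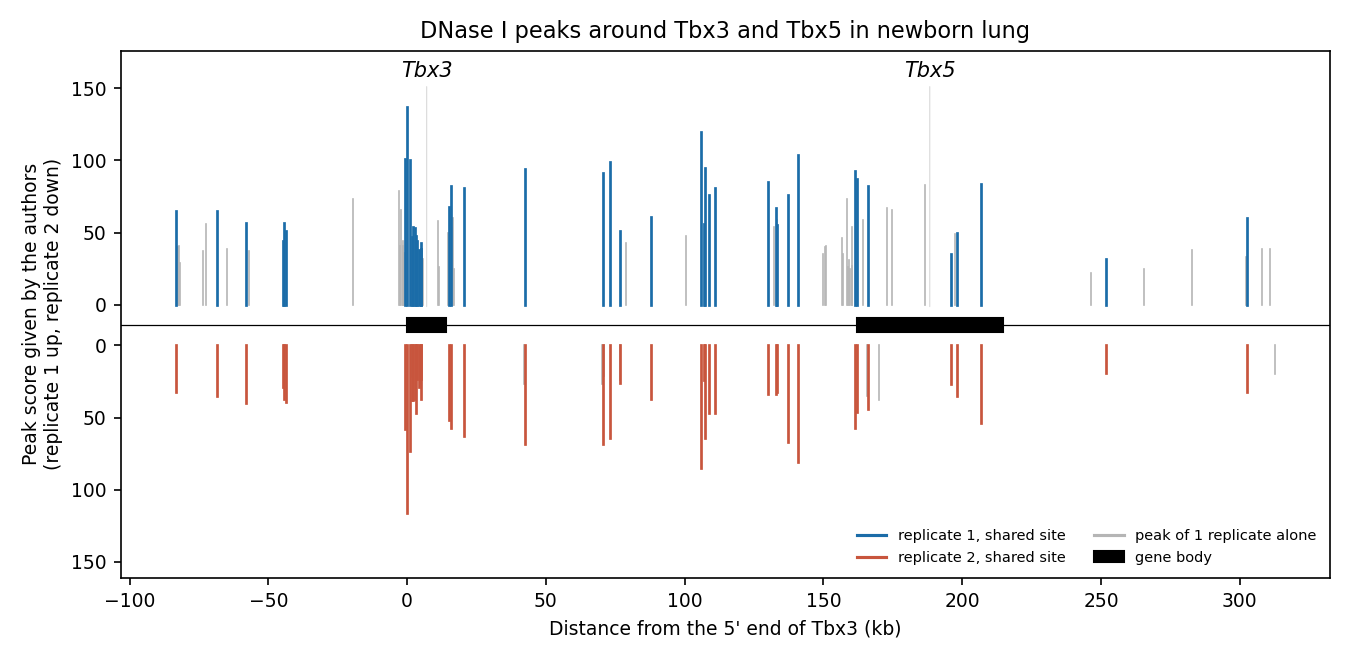
Peaks in the Tbx3/Tbx5 window by distance from the 5′ end of Tbx3 in kb (x axis), with bar height for the authors' peak score (y axis), replicate 1 upward and replicate 2 downward, coloured where shared and grey where found in 1 replicate alone. The Tbx3 promoter reaches 137 and 116, the strongest site between the genes 120 and 85, and 2 shared sites lie after Tbx5.

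**Figure D4:**
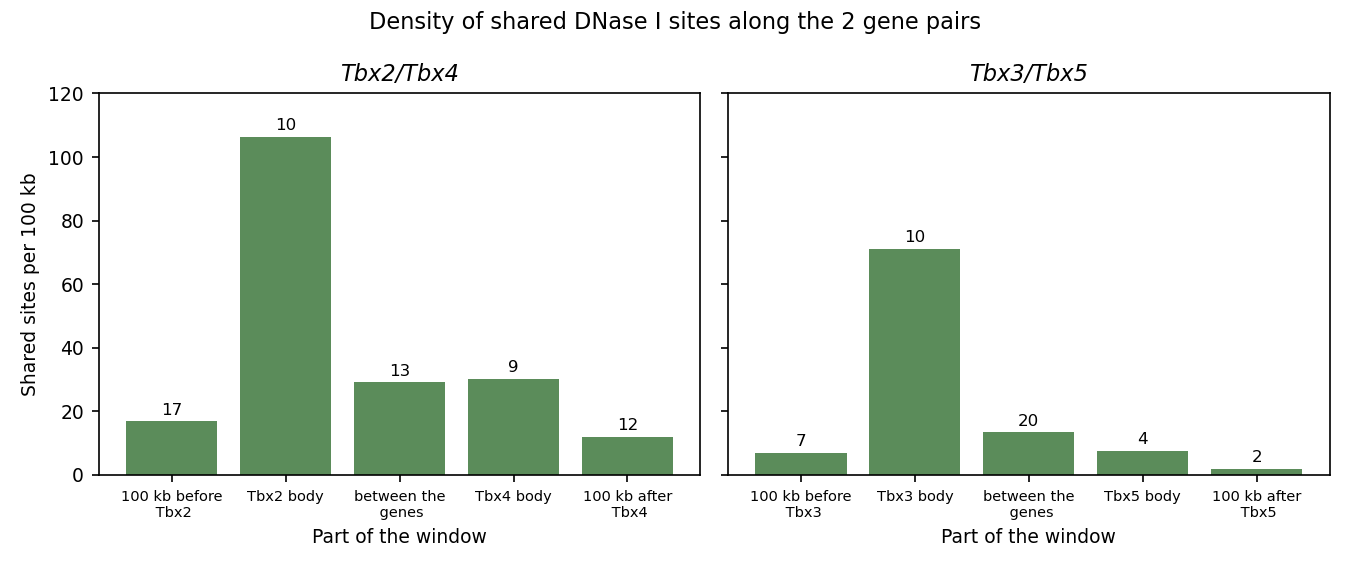
Shared sites per 100 kb (y axis) in each part of the 2 windows (x axis), with the number of shared sites above each bar. The bodies of Tbx2 (106.4) and Tbx3 (71.14) stand above those of Tbx4 (30.33) and Tbx5 (7.612), and the 100 kb after Tbx5 is lowest at 2.

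In both pairs the repressor gene of the pair thus had the stronger promoter and the denser body, as values of these 2 libraries. It was also the shorter gene, 9.398 against 29.68 kb for Tbx2/Tbx4 and 14.06 against 52.55 kb for Tbx3/Tbx5. The bodies of Tbx2 and Tbx4 held 10 and 9 shared sites. Body density is not given for all genes, and the part of gene length in it was not tested. The spacing of the pairs differs, with 44473 bp between Tbx2 and Tbx4 and 147943 bp between Tbx3 and Tbx5, and so did the placing of the strong distal sites. Of the 6 distal sites around Tbx2/Tbx4 in the top 10% of both lists, 3 lay just after Tbx2 and 3 upstream of it within Bcas3. The single such site around Tbx3/Tbx5 lay between the genes, nearer to the Tbx5 TSS than to any Tbx3 TSS. Peaks do not show which gene a site acts on.

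Exact matches to consensus letters were searched on both strands in the 150 bp around the centre of the 76 distal shared sites of both windows. The full T-box element AGGTGTGA was found in 0 of 76, beside 0.626% of all distal shared sites. Its core GGTGTG, which also counts any full element, was in 5 (6.58%), beside 11% of all distal shared sites. One of these 5 is the strongest site after Tbx2, shown above. With 300 bp around each centre the core was in 9 sites (11.8%), beside 20%. Over distal sites of either replicate it was in 19 of 161 (11.8%), beside 11.2%, so the gap depends on the sites taken. TEAD letters (GGAATG), bound by the factors of the Hippo pathway, were in 10 of 47 sites around Tbx2/Tbx4 and in 3 of 29 around Tbx3/Tbx5. Together that was 17.1%, beside 12.9%. With 300 bp around each centre it was 15 sites (19.7%), beside 21.2%, so this gap depends on the window. The E-box CAGCTG was in 12 sites (15.8%), beside 14.6%, and the strongest site between Tbx3 and Tbx5 is among them.

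MEIS letters (TGACAG) were in 2 sites (2.63%), beside 12.4% of all distal shared sites. With 300 bp around each centre it was 13 sites (17.1%), beside 22.7%, so the gap depends on the window. PITX letters (TAATCC) were in 3 sites (3.95%), beside 3.71%, and TCF/LEF letters (ATCAAAG), the end point of Wnt signalling, in 1 site (1.32%), beside 1.99%. The GLI letters GACCACCCA, the end point of hedgehog signalling, were in 0 sites, beside 0.0837%. Also in 0 sites were the full NFI element, TTGGC and 5 bases further on GCCAA (beside 0.12%), and the retinoic acid receptor element, AGGTCA repeated after 5 bases (beside 0.0117%). AP-1 letters (TGANTCA) were in 7 sites (9.21%), beside 10.3%. Forkhead letters (TGTTTAC), which FOXF1 of the lung mesenchyme can bind, were in 3 sites (3.95%), beside 4.31%, and the strong site 46006 bp before Tbx2 holds them. GATA letters (AGATAA) were in 3 sites (3.95%), beside 7.14%, and with 300 bp around each centre in 11 (14.5%), beside 15.1%. A long form of the CTCF element, CC and 3 bases further on AGGGGGCG, was in 0 sites, beside 0.782%. A short form, AGGGGGCAG, was added after the printed sequences had been seen. It was in 2 sites (2.63%), beside 1.29%, and these were the strongest site after Tbx2 and the one 32707 bp after Tbx3. In promoter sites, CAGCTG was in 4 of 8 around Tbx2/Tbx4, 3 of them the Tbx4 sites shown above. It was in 1 of 11 around Tbx3/Tbx5, a site 43704 bp before Tbx3. Of all promoter shared sites 10.7% held it. A match is a description of the letters and shows no binding.

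Genes known to act with these factors were mostly open too. Of 11 upstream signals and factors, 10 had a shared promoter peak (90.9%), beside 68.4% of all protein-coding genes. In the top 10% of both lists were 7 (63.6%), beside 45.6% of all protein-coding genes. Those with a shared peak included Bmp4, a growth factor that acts upstream of Tbx2 in the mouse heart (128 and 107), the hedgehog receptor Ptch1 (126 and 108), its effectors Gli1 (94 and 86), Gli2 (116 and 92) and Gli3 (111 and 87), and the mesenchymal factor Foxf1 (119 and 92). The ligand gene Shh, which is made by airway epithelium, had no shared promoter peak but a promoter peak of replicate 1 alone (50). Of the retinoic acid genes, the receptor genes Rara and Rarb scored 134 and 128, and 110 and 85, and Aldh1a2, a retinoic acid synthesis gene, 91 and 83. Pitx1 had the weakest shared promoter peak of the upstream list (58 and 35). It is also the hindlimb gene of the tissue check above, and it is counted among the open genes here.

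Of 16 genes placed downstream of T-box factors or working with them, 14 had a shared promoter peak and 4 were in the top 10% of both lists. The cell cycle inhibitor genes Cdkn1a (128 and 109), Cdkn1b (141 and 122) and Cdkn2a (102 and 71), which TBX2 or TBX3 are known to repress, were open. The Wnt antagonist genes Frzb (69 and 47) and Shisa3 (65 and 42) had weaker peaks, as did Il33 (91 and 72) and Ccn4 (64 and 44). Among the genes that Tbx4 and Tbx5 act through, Fgf10, the branching signal of the distal mesenchyme, scored 57 and 43, Wnt2 72 and 51 and Wnt2b 87 and 69. Sox9 scored 117 and 78, Spry2, an inhibitor of growth factor signalling, 139 and 116, Gata4 70 and 52 and Gata6 131 and 115. The heart genes Nkx2-5 and Nppa had no shared promoter peak, though Nkx2-5 had a promoter peak of replicate 1 alone (35). Nppa is also among the heart genes of the tissue check above. Of the 27 genes together, 24 were open (88.9%), beside 68.4% of all protein-coding genes. In the top 10% of both lists were 11 of the 27 (40.7%), beside 45.6% of all protein-coding genes, and 4 of the 16 downstream genes (25%). An open promoter does not show that a gene is expressed.

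The genes whose values most resembled each member were found by the distance over 4 percentiles, those of both promoter scores, of the number of shared promoter peaks and of the site density, among 14990 genes. For Tbx2 they were Sema3g, Tha1 and Btn2a2, at distances of 3.48, 3.58 and 3.59 percentile points. For Tbx3 they were Dennd4b, Celf1 and Wiz, at 2.95, 3.89 and 3.99. Tbx4 was nearest to Dmpk, Hap1 and Slc9a3r2, at 3.57, 4 and 5.52, and Tbx5 to Kcns3, Ccl2 and C7, at 1.77, 2.47 and 3.15. The nearest to Tbx5, Kcns3, scored 86 and 43 and likewise had a single shared promoter peak.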

How the data were processed

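DNase-seq of newborn mouse lung was analysed in 2 replicates of 1 group, taken as numbered in the labels. The deposited peaks carry a score per peak, a whole number given by the authors whose meaning no source states. The deposited hotspots carry a −log10 q-value with a ceiling of 100. Per the labels, the assembly is mm10. The aligner, the caller and the depth are not given in the sources used here. Hence no value was scaled by depth and no interval that needs it was computed. Each peak and hotspot list was derived from the alignments of its own library, per the notes deposited beside it.

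Exact duplicates and intervals outside chromosomes 1 to 19, X and Y were dropped. Peaks overlapping by at least 1 bp were merged, and a site with peaks of both replicates is shared. Promoter peaks lie within 500 bp of any GENCODE TSS. Windows reach 100 kb past the gene body, distal sites lie over 1000 bp from any TSS, and percentiles are within each list or over protein-coding genes. The class of a site (promoter, exon, intron, intergenic) was taken at its centre. Sequences come from the RefSeq copy of GRCm38. Python 3.11.15 and numpy 2.4.6 were used, with exact Clopper-Pearson intervals from scipy 1.17.1. The counting of shared sites was tested on simulated data.

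Of 15 motifs, 1 was added after the sequences were seen. The members, gene lists and motifs were chosen with earlier results of these data known. Named are the members, their promoter sites, the 3 strongest distal sites of each, the listed family, partner and target genes, flanking genes and the 3 most alike genes per member (models within 500 kb left out). Individual sites named to describe a cluster or a gap, those near the 500 bp limit and the most unequal site were chosen after their values were seen. Alternatives covered overlap, score, promoter and flank width, TSS choice, gene bounds, hotspots, motif windows and each replicate alone.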

Additional observations from a re-analysis of the deposited data

How the results depend on the processing

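All 4 members kept a promoter peak under each alternative run. The count of 2 in the top 10% of both lists held with the 5′ end only and with promoters of 1000 bp. It was also 2 in the list of each replicate alone. With hotspots in place of peaks, 2 members had promoter hotspots at the ceiling in both replicates. That rule is not a top 10%, because 39.5% of replicate 1 and 36.2% of replicate 2 hotspots lie at the ceiling. The T-box element stayed at 0 matches with 300 bp windows, beside 1.25% of all distal shared sites. It also stayed at 0 with distal sites of either replicate, beside 0.656% of all such sites. Of 79 alternative values, 20 moved by more than 1.5 times or, for a score, changed, and the cause was not tested except where the window is smaller by construction. Shared sites within 20 kb were 25 for Tbx2, 14 for Tbx3, 13 for Tbx4, 6 for Tbx5, 38 for Tbx2/Tbx4 and 20 for Tbx3/Tbx5. Within 50 kb they were 33 for Tbx2, 18 for Tbx3 and 12 for Tbx5. With only peaks above the median score they were 13 for Tbx3, 31 for Tbx4, 12 for Tbx5 and 19 for Tbx3/Tbx5. With 1 replicate left out, the other alone gave 64 to 85 sites for Tbx2, 36 to 54 for Tbx3, 29 to 48 for Tbx5, 74 to 97 for Tbx2/Tbx4 and 53 to 91 for Tbx3/Tbx5, the higher each time from replicate 1, which has more peaks. With promoters of 1000 bp the Tbx5 scores were 93 and 57. No paired analysis was possible because the series holds 1 group. The depth of the libraries is unknown, so an absent peak may lie below detection.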
